A study of Homo sapiens with 24 samples.

Results

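The 30 genes described here encode enzymes of the tricarboxylic acid (TCA) cycle, of anaplerosis and of glutamine use, together with carriers of the mitochondrial and plasma membranes. They were chosen by name and matched by symbol to 30 of the 78724 Ensembl gene IDs in the 2 deposited count tables. Their mRNA was measured by RNA sequencing in 2 human biliary tract cancer cell lines, OCUG-1, from a gallbladder cancer and grown in DMEM, and HuCCT1, from an intrahepatic cholangiocarcinoma and grown in RPMI-1640. Each line was held for 72 h in 1 of 4 arms: 1.25 µM sorafenib with 1 µM IACS-010759 (called the combination), DMSO vehicle, sorafenib at 1.25 µM, and sorafenib at 10 µM. DMSO was at no more than 0.1% in every arm. Sorafenib inhibits RAF and several receptor tyrosine kinases, and IACS-010759 inhibits complex I of the respiratory chain. Each arm had 3 libraries labelled as independent biological replicates, 24 in all. IACS-010759 without sorafenib was not an arm, and its effect is seen only as the combination against 1.25 µM. Each line comes from 1 tumour and had its own medium.

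The TCA cycle burns acetyl-CoA in the mitochondrial matrix and hands its electrons to the respiratory chain, where complex I reoxidises NADH. Anaplerotic enzymes refill the cycle from pyruvate or glutamine, and cataplerotic ones draw carbon out of it. NADH made in the cytosol cannot cross the inner mitochondrial membrane, and the malate-aspartate shuttle carries its electrons inwards with paired cytosolic and mitochondrial malate dehydrogenases and aspartate aminotransferases and a pair of carriers. In tumour cells these enzymes also supply aspartate for nucleotides and citrate for lipids.

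The total count was 14388855 to 24019011 per library in OCUG-1 and 18238834 to 30693736 in HuCCT1. Levels are counts scaled to a common library size (CPM), within a line and by the trimmed mean of M values. Differences are log2 fold changes ± standard error (SE) from edgeR quasi-likelihood fits, and a gene is called where the p adjusted over all genes tested was under 0.05. In bulk RNA, fewer cells of a kind and less RNA per cell cannot be told apart. Averaged over the arms of a line, all 6 biliary epithelial markers lay above 10 CPM, with KRT7 in OCUG-1 the lowest (8.63 CPM with vehicle), and none of the 4 hepatocyte, 3 immune and 3 endothelial markers did. The fibroblast list had COL1A1 at 28.4 CPM with the combination, 93.1 CPM with vehicle, 93.2 CPM at 1.25 µM and 29.8 CPM at 10 µM in OCUG-1 and 19.8 to 26.3 CPM in HuCCT1, and LUM was also above 10 CPM in both lines, with COL1A2 under 1 CPM and DCN under 5 CPM. The 6 epithelial markers summed to 1672 CPM with the combination and 1484 CPM at 10 µM in OCUG-1, against 5114 CPM with vehicle and 6726 CPM at 1.25 µM. KRT8, KRT18 and KRT19 carried this sum, while SOX9 averaged 165 CPM with the combination and 158 CPM at 10 µM, against 78.9 CPM with vehicle and 77.8 CPM at 1.25 µM. The sum ran from 8304 to 11513 CPM across the HuCCT1 arms. Counts from the mitochondrial genome made up 4.71, 6.48 and 5.11% of the OCUG-1 combination libraries, 13.6, 11.1 and 11.9% with vehicle, 13.1, 10.8 and 9.39% at 1.25 µM and 6.25, 5.65 and 5.95% at 10 µM. In HuCCT1 the shares were 12.6, 10.5 and 11.1% with the combination, 11.8, 14.1 and 7.08% with vehicle, 21.8, 19.4 and 12.46% at 1.25 µM and 9.72, 11.6 and 8.32% at 10 µM. HuCCT1 replicate 3 had the lowest share in the vehicle, 1.25 µM and 10 µM arms, and 24, 23 and 16 of the 30 genes were highest in it. In the HuCCT1 combination arm 25 were highest in replicate 2, again the library with the lowest share. Over all genes tested these 4 libraries held the highest value for 39.2%, 38.6%, 40.5% and 37.1%. The part of the marker sums and of the mitochondrial share in the results below was not tested.

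Promoter sequences are shown for 3 genes that moved far in OCUG-1: GOT1 and PCK2, which rose, and SLC25A1, which fell. They are RefSeq windows on GRCh38.p14 from 250 bases before to 50 after the annotated start, read along the gene's strand, with motif matches in capitals. GOT1 is on the minus strand at chr10:99430575-99430874, PCK2 on the plus strand at chr14:24094061-24094360 and SLC25A1 on the minus strand at chr22:19178687-19178986.
GOT1: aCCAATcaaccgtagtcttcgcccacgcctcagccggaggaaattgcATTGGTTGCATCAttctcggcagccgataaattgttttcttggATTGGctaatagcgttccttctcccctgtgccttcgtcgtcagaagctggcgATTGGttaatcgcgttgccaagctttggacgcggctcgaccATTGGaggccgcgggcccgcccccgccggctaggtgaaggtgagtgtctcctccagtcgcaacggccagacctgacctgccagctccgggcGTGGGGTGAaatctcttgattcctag
PCK2: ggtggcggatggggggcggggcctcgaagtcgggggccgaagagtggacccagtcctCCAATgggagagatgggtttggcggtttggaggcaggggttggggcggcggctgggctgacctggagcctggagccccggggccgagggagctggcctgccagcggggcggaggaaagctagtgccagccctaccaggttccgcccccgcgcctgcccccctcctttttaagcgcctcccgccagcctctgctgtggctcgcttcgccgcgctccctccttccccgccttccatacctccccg
SLC25A1: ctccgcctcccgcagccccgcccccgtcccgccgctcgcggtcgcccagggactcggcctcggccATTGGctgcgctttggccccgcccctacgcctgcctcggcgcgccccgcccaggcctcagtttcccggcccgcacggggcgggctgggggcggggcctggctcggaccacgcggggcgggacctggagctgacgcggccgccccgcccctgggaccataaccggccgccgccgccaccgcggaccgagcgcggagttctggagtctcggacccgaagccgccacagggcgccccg
The 6 motifs were searched on both strands in the windows of the 28 members listed by RefSeq and in all 35116 windows of the table. A member counts where any of its windows holds a match, while the shares given beside it are per window. Members and windows are thus not counted in like units. GOT1 held a match to TGATGNAAN, the C/EBP-ATF composite element bound by stress factors such as ATF4, at position -199 from the start. This motif was in 2 of the 28 members (GOT1 and SLC25A11) and in 3.61% of all windows. GOT1 was also the only member with TCACNCCAC, a sterol element found in 1.13% of windows. Each of the 3 windows held CCAAT, at 5 places in GOT1 and 1 in each of the others, and 1 of those in GOT1 shares a base with the C/EBP-ATF match. CCAAT was in 16 of 28 members and 34.6% of windows. GCGCNTGCG, the core bound by NRF1, was in IDH3A, IDH3G, SUCLA2, SLC25A11 and GLUD1 and in 7.47% of windows. The E-box CACGTG was in SLC25A13 and ME3 and in 7.26% of windows, and TNAAGGTCA, bound by ERR-alpha, was in 0 of 28 members and 0.951% of windows. A match is a description of letters and not of a bound site.

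In OCUG-1 these genes moved in both directions at once with the combination and at 10 µM, and mostly upwards at the low dose. Of 30 genes 28 passed the filter on low counts in this line. At 1.25 µM against vehicle 7 of the 28 rose and 0 fell, where 5.92% of all 20511 genes tested rose and 4.61% fell (10.5% called in all). The members' median log2 fold change was 0.22, beside -0.03 over all genes. Leaving out vehicle replicate 1, vehicle replicate 3 or 1.25 µM replicate 2 brought the count down to 1, and leaving out 1.25 µM replicate 3 brought it to 2. The calls over all genes fell too, from 2160 to 839, 802, 653 and 1082 in the same order. With library size as the only scaling 4 members rose and 1 fell. At 10 µM against vehicle 13 rose and 8 fell, with a median of 0.22 beside 0.00 over all genes, of which 32.4% rose and 30.7% fell (63.1% in all). With the combination against 1.25 µM 8 rose and 9 fell, with a median of -0.03 beside 0.06, and 31.4% of all genes rose and 26.7% fell (58.1% in all). With the combination against vehicle 14 rose and 8 fell, where 31.5% of all genes rose and 28.1% fell (59.5%). At 10 µM against 1.25 µM 7 rose and 11 fell, where 31.6% of all genes rose and 29% fell (60.5%), and with library size as the only scaling the split was 9 to 8. The share of members called with the combination against 1.25 µM (60.7%) was near that of all genes, and the shares at 10 µM (75.0%) and with the combination against vehicle (78.6%) were above it, a difference that was not tested. The combination and 10 µM are also the arms with the low summed epithelial markers and mitochondrial shares, whose part was not tested. The 10 µM and 1.25 µM arms share their vehicle libraries, and the combination shares the 1.25 µM libraries.

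Fewer of the genes were called in HuCCT1 with the combination and at 10 µM. All 30 genes passed the filter there, and the combination against 1.25 µM called 0 up and 2 down (GPT2 and SLC25A13), where 5.06% of all 19576 genes tested rose and 6.57% fell (11.6% called in all). The members' median was 0.06 beside 0.00 over all genes. At 1.25 µM against vehicle 4 rose and 3 fell (median 0.06 beside 0.00), where 9.98% of all genes rose and 8.5% fell (18.5%). At 10 µM against vehicle 5 rose and 2 fell (median 0.09 beside 0.01), where 13% rose and 11.2% fell (24.2%). The combination against vehicle gave 5 up and 4 down, where 9.94% of all genes rose and 10.1% fell (20.1%). The 10 µM arm against the 1.25 µM arm gave 4 up and 3 down, where 14.4% rose and 13.7% fell (28.2%). These counts depended on replicate 3. With the replicate 3 libraries of all 4 arms left out, an alternative chosen after seeing the data, the members called were 15 for the combination against 1.25 µM, 16 for 1.25 µM, 14 for 10 µM, 17 for the combination against vehicle and 17 for the direct comparison of doses. Calls over all genes rose too, to 5853, 5956, 6413, 5516 and 7295 of 20247 in the same order. In the main fit they were 2276, 3616, 4747, 3931 and 5518 of 19576. Without 1.25 µM replicate 3 alone the combination against 1.25 µM called 5 members and the dose comparison 12. Over all genes these gave 3224 and 6284 calls. The dose comparison gave 3 without 1.25 µM replicate 1 and 4 without replicate 2. The count at 1.25 µM was 4 without vehicle replicate 1 or 3 and 3 without 1.25 µM replicate 1 or 2. Scaling by library size alone moved the split to 2 up and 2 down for the combination against 1.25 µM, 1 and 5 at 1.25 µM, 5 and 1 at 10 µM, and 10 and 1 between the doses.

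**Figure D1:**
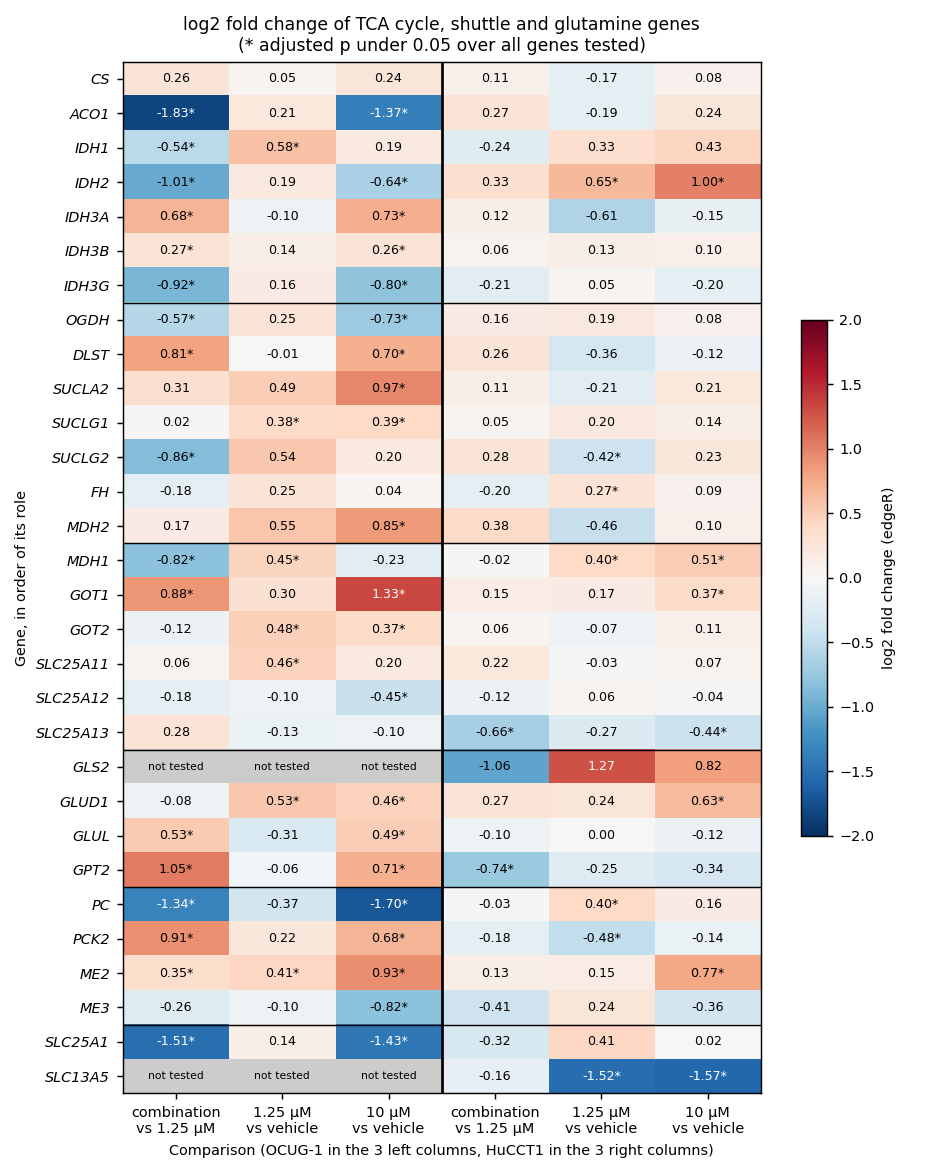
log2 fold changes of the 30 genes in 6 comparisons, OCUG-1 in the left 3 columns and HuCCT1 in the right 3, with genes in order of their role and an asterisk on each call. The deepest falls are ACO1 (-1.83, OCUG-1 combination against 1.25 µM) and PC (-1.70, OCUG-1 10 µM), and the value of 1.27 for GLS2 in HuCCT1 at 1.25 µM, which was not called, rests on at most 16 counts per library.

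The first steps of the cycle run from citrate synthesis to 2-oxoglutarate, through aconitase and the isocitrate dehydrogenases. Of these 7 genes 2 rose and 4 fell in OCUG-1 with the combination against 1.25 µM, and 2 rose and 3 fell at 10 µM. Of all genes tested 58.1% were called in the first comparison and 63.1% in the second. In OCUG-1 the cytosolic enzyme ACO1, the NADP-dependent matrix enzyme IDH2 and the IDH3G subunit fell with the combination and at 10 µM, while the catalytic IDH3A subunit and IDH3B rose. In HuCCT1 only IDH2 of these 7 genes was called at either dose, and it rose. There 18.5% of all genes were called at 1.25 µM and 24.2% at 10 µM. ACO1, the cytosolic aconitase that turns into the iron regulatory protein IRP1 when it loses its cluster, had 31.5, 32.1 and 30.3 CPM with the combination, 87.5, 111 and 90.6 CPM with vehicle, 95.7, 117 and 122 CPM at 1.25 µM and 37.8, 29.8 and 44.4 CPM at 10 µM in OCUG-1. The 6 libraries of the combination and 10 µM arms lay below the other 6. Its log2 fold change was -1.83 ± 0.14, adjusted p = 4.21e-09, for the combination against 1.25 µM and -1.37 ± 0.14, adjusted p = 8.64e-08, at 10 µM against vehicle. ACO1 in HuCCT1 had 61.1, 80.3 and 60.5 CPM with the combination, 55.7, 52.8 and 82.3 CPM with vehicle, 48.6, 49.96 and 68.7 CPM at 1.25 µM and 67.7, 71.3 and 87.4 CPM at 10 µM. The 4 HuCCT1 groups overlapped, and no comparison called it.

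IDH2, which makes NADPH and 2-oxoglutarate in the matrix, had 62.2, 53.0 and 49.0 CPM with the combination, 93.9, 101 and 94.4 CPM with vehicle, 105, 109 and 116 CPM at 1.25 µM and 58.1, 57.8 and 69.6 CPM at 10 µM in OCUG-1. It fell with the combination against 1.25 µM (-1.01 ± 0.11, adjusted p = 3.22e-07) and at 10 µM against vehicle (-0.64 ± 0.11, adjusted p = 4.27e-05), with no overlap between the groups compared. In HuCCT1 it had 33.7, 34.0 and 32.0 CPM with the combination, 14.5, 16.8 and 19.3 CPM with vehicle, 23.7, 26.6 and 28.8 CPM at 1.25 µM and 31.2, 35.4 and 34.8 CPM at 10 µM. Every HuCCT1 library with sorafenib lay above every vehicle library, and IDH2 rose by 0.65 ± 0.12, adjusted p = 0.00191, at 1.25 µM and by 1.00 ± 0.12, adjusted p = 2.45e-05, at 10 µM. IDH1, its cytosolic and peroxisomal relative, had 181, 168 and 149.6 CPM with the combination, 125, 198 and 161 CPM with vehicle, 216, 255 and 254 CPM at 1.25 µM and 190.2, 167 and 195 CPM at 10 µM in OCUG-1. IDH1 rose at 1.25 µM (0.58 ± 0.14, adjusted p = 0.0127) and fell with the combination against 1.25 µM (-0.54 ± 0.14, adjusted p = 0.00252). The call at 1.25 µM ended on leaving out 1 of vehicle replicates 1 and 3, 1.25 µM replicate 2 (adjusted p 1.32e-05 to 0.0638 over 12 alternatives). In HuCCT1 IDH1 averaged 71.6 ± 7.38 CPM with the combination, 67.0 ± 16.2 CPM with vehicle, 84.2 ± 18.1 CPM at 1.25 µM and 90.4 ± 10.9 CPM at 10 µM (SD, n = 3 each), with no call.

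The NAD-dependent isocitrate dehydrogenase, the form that feeds complex I, is built from 3 kinds of subunit that did not move together. IDH3G, a regulatory subunit, had 36.0, 39.4 and 42.7 CPM with the combination, 73.5, 64.9 and 61.3 CPM with vehicle, 79.8, 71.6 and 71.6 CPM at 1.25 µM and 36.6, 39.8 and 38.0 CPM at 10 µM in OCUG-1. It changed by -0.92 ± 0.10, adjusted p = 5.86e-07, for the combination against 1.25 µM and by -0.80 ± 0.10, adjusted p = 2.06e-06, at 10 µM, with no overlap. IDH3A, the catalytic subunit, had 17.9, 13.1 and 16.0 CPM with the combination, 10.6, 10.5 and 10.3 CPM with vehicle, 6.40, 10.4 and 12.4 CPM at 1.25 µM and 16.1, 18.03 and 18.2 CPM at 10 µM. It rose with the combination (0.68 ± 0.18, adjusted p = 0.00388) and at 10 µM (0.73 ± 0.18, adjusted p = 0.00173), again with no overlap. Exons of ACSBG1 and CIB2 on the other strand cover 38.9% of the IDH3A exon bases and SSR4 covers 10.2% of those of IDH3G, and reads there may be shared. IDH3B, the remaining subunit, averaged 93.2 ± 6.08 CPM with the combination, 70.4 ± 2.85 CPM with vehicle, 77.4 ± 5.02 CPM at 1.25 µM and 84.1 ± 5.93 CPM at 10 µM (SD, n = 3). Its log2 fold changes of 0.27 (combination against 1.25 µM) and 0.26 (10 µM) were called, the first of them lost on leaving out 1 of 1.25 µM replicates 1 and 2, combination replicates 1 and 3 and with no filter on low counts, a fit of the compared groups alone and the second on leaving out 1 of vehicle replicates 1 and 3, 10 µM replicates 1 and 3 and with no filter on low counts (adjusted p 0.00128 to 0.24 and 0.0147 to 0.0973 over 12 alternatives each). In HuCCT1 the 3 subunits had log2 fold changes between -0.61 (IDH3A, 1.25 µM) and 0.13 (IDH3B, 1.25 µM) in the 3 comparisons, with no call.

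CS, the enzyme that joins acetyl-CoA and oxaloacetate, moved little. It averaged 108 ± 2.30 CPM in OCUG-1 with the combination, 86.7 ± 6.65 CPM with vehicle, 89.9 ± 13.7 CPM at 1.25 µM and 103 ± 13.8 CPM at 10 µM (SD, n = 3 each). In HuCCT1 the averages were 163 ± 16.1, 171 ± 38.0, 152 ± 35.2 and 181 ± 12.1 CPM in the same order of arms. None of the 3 main comparisons of either line called CS. Against vehicle the OCUG-1 combination did (0.31 ± 0.12, adjusted p = 0.0304), and that call ended on leaving out 1 of vehicle replicates 1 and 3, combination replicates 1, 2 and 3 (adjusted p 0.0133 to 0.125 over 12 alternatives).

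From 2-oxoglutarate to oxaloacetate the pattern in OCUG-1 was again mixed within single enzymes. Of the 7 genes 1 rose and 2 fell with the combination against 1.25 µM, and 4 rose and 1 fell at 10 µM. These comparisons called 58.1% and 63.1% of all genes. In HuCCT1 none was called in those comparisons (11.6% and 24.2% of all genes), and 1 rose and 1 fell at 1.25 µM (18.5%). The 2-oxoglutarate dehydrogenase complex burns 2-oxoglutarate to succinyl-CoA. Its first component OGDH had 99.4, 103 and 108 CPM with the combination, 139, 119 and 129 CPM with vehicle, 152, 151 and 157 CPM at 1.25 µM and 82.6, 76.5 and 74.1 CPM at 10 µM, and its second, the succinyltransferase DLST, had 132, 115 and 117 CPM with the combination, 66.7, 77.8 and 65.6 CPM with vehicle, 57.1, 72.9 and 78.0 CPM at 1.25 µM and 108, 114 and 119.9 CPM at 10 µM. OGDH lay lower and DLST higher in every combination library than in any 1.25 µM library, and likewise at 10 µM than with vehicle. The log2 fold changes were -0.57 ± 0.09 (adjusted p = 4.42e-05) for OGDH and 0.81 ± 0.12 (adjusted p = 1.1e-05) for DLST with the combination, and -0.73 ± 0.09 (adjusted p = 2.16e-06) and 0.70 ± 0.12 (adjusted p = 3.76e-05) at 10 µM. In HuCCT1 OGDH averaged 123 ± 12.3 CPM with the combination, 96.7 ± 13.9 CPM with vehicle, 110.4 ± 7.10 CPM at 1.25 µM and 102 ± 7.63 CPM at 10 µM (SD, n = 3 each). It was called there only for the combination against vehicle (0.35 ± 0.11, adjusted p = 0.0395), a call that ended on leaving out 1 of vehicle replicates 1 and 2, combination replicates 2 and 3 (adjusted p 6.03e-05 to 0.177 over 13 alternatives). DLST had 129, 145 and 133 CPM with the combination, 133, 130.5 and 172 CPM with vehicle, 104, 99.5 and 137 CPM at 1.25 µM and 129.8, 112 and 158 CPM at 10 µM in HuCCT1, with no call.

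Succinyl-CoA ligase pairs the shared subunit SUCLG1 with SUCLA2, which makes ATP, or with SUCLG2, which makes GTP. SUCLA2 had 31.5, 28.98 and 26.5 CPM with the combination, 13.3, 19.6 and 16.8 CPM with vehicle, 11.9, 26.6 and 31.4 CPM at 1.25 µM and 32.4, 30.4 and 34.5 CPM at 10 µM in OCUG-1. It rose at 10 µM (0.97 ± 0.25, adjusted p = 0.00372), while the combination overlapped the widely spread 1.25 µM libraries (0.31 ± 0.25, adjusted p = 0.291). SUCLG2 had 55.3, 52.5 and 41.3 CPM with the combination, 50.9, 74.1 and 61.1 CPM with vehicle, 73.0, 95.2 and 103 CPM at 1.25 µM and 77.1, 53.1 and 83.5 CPM at 10 µM there. It fell with the combination against 1.25 µM (-0.86 ± 0.18, adjusted p = 0.000724), with no overlap. In HuCCT1 SUCLG2 had 33.2, 39.9 and 33.2 CPM with the combination, 37.9, 33.4 and 45.3 CPM with vehicle, 26.3, 27.5 and 33.7 CPM at 1.25 µM and 41.8, 42.0 and 53.3 CPM at 10 µM. It fell at 1.25 µM (-0.42 ± 0.14, adjusted p = 0.0496), with 1 library of the groups overlapping, and this call ended on leaving out 1 of vehicle replicates 1 and 3, 1.25 µM replicates 1 and 2 and with a fit of the compared groups alone (adjusted p 0.00301 to 0.205 over 13 alternatives). At 10 µM against 1.25 µM it rose by 0.65 ± 0.14, adjusted p = 0.00318. SUCLG1 averaged 72.9 ± 1.37 CPM in OCUG-1 with the combination, 55.5 ± 0.942 CPM with vehicle, 72.0 ± 4.11 CPM at 1.25 µM and 72.9 ± 7.13 CPM at 10 µM (SD, n = 3 each). SUCLG1 rose at 1.25 µM (0.38 ± 0.10, adjusted p = 0.0189) and at 10 µM (0.39 ± 0.10, adjusted p = 0.00147), and the first call ended on leaving out 1 of vehicle replicates 1 and 3, 1.25 µM replicates 2 and 3 and with library size as the only scaling (adjusted p 0.0016 to 0.0995 over 12 alternatives).

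Fumarase, FH, stood at 113 ± 3.58, 107 ± 4.64, 128 ± 2.38 and 109.9 ± 3.63 CPM in OCUG-1 (combination, vehicle, 1.25 µM and 10 µM; SD, n = 3 each) and 116 ± 5.81, 111 ± 0.894, 133 ± 6.93 and 118 ± 4.81 CPM in HuCCT1. In HuCCT1 at 1.25 µM it rose by 0.27 ± 0.09, adjusted p = 0.0434, a call that ended in 10 of 13 alternatives (adjusted p 0.0128 to 0.375), every single left-out library among them. MDH2, the matrix malate dehydrogenase that closes the cycle and also serves the shuttle, had 134, 93.1 and 105 CPM with the combination, 54.6, 76.9 and 70.5 CPM with vehicle, 63.9, 106 and 126 CPM at 1.25 µM and 119, 111 and 135 CPM at 10 µM in OCUG-1. It rose at 10 µM (0.85 ± 0.21, adjusted p = 0.00249), with all 3 libraries above the vehicle range. At 1.25 µM its 3 libraries spread widely and it was not called (0.55 ± 0.21, adjusted p = 0.103). In HuCCT1 MDH2 had 93.8, 113 and 92.9 CPM with the combination, 102, 85.8 and 130.3 CPM with vehicle, 54.5, 67.4 and 109 CPM at 1.25 µM and 101, 103 and 136 CPM at 10 µM. Replicate 3 was the highest in the vehicle, 1.25 µM and 10 µM arms, and no comparison called it.

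In the malate-aspartate shuttle the cytosolic and mitochondrial partners were not always called together in OCUG-1, though GOT1 and GOT2 both rose at 10 µM. Of the shuttle's 7 genes 1 rose and 1 fell in OCUG-1 with the combination against 1.25 µM, 3 rose and 0 fell at 1.25 µM and 3 rose and 1 fell at 10 µM. In HuCCT1 0 rose and 1 fell with the combination, 1 rose and 0 fell at 1.25 µM and 2 rose and 1 fell at 10 µM. Of all genes 58.1%, 10.5% and 63.1% were called in OCUG-1 and 11.6%, 18.5% and 24.2% in HuCCT1, in the same order. MDH1, the cytosolic malate dehydrogenase, had 169.7, 169.7 and 162 CPM with the combination, 192, 245 and 211 CPM with vehicle, 252, 307 and 326 CPM at 1.25 µM and 186, 171 and 196 CPM at 10 µM. It rose at 1.25 µM against vehicle (0.45 ± 0.11, adjusted p = 0.0187) and fell with the combination against 1.25 µM (-0.82 ± 0.11, adjusted p = 7.18e-06), with no overlap in either comparison. The rise ended on leaving out 1 of vehicle replicates 1 and 3, 1.25 µM replicates 2 and 3 (adjusted p 0.00149 to 0.0897 over 12 alternatives). In HuCCT1 it had 120.0, 123 and 113 CPM with the combination, 87.3, 90.6 and 96.1 CPM with vehicle, 117, 118 and 127 CPM at 1.25 µM and 129, 138 and 124 CPM at 10 µM. All 9 HuCCT1 libraries with drug lay above the 3 vehicle libraries. The log2 fold change was 0.40 ± 0.09, adjusted p = 0.00631, at 1.25 µM and 0.51 ± 0.09, adjusted p = 0.000658, at 10 µM, and the first call ended with library size as the only scaling (adjusted p 0.000155 to 0.0684 over 13 alternatives).

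GOT1, the cytosolic aspartate aminotransferase, can make aspartate in the cytosol when it runs in reverse. It had 98.6, 71.9 and 88.3 CPM with the combination, 33.6, 43.1 and 37.9 CPM with vehicle, 43.5, 50.7 and 46.7 CPM at 1.25 µM and 80.7, 110.4 and 96.9 CPM at 10 µM in OCUG-1. The combination and 10 µM libraries all lay above the vehicle and 1.25 µM libraries, and the log2 fold change was 0.88 ± 0.13, adjusted p = 2.18e-05, for the combination against 1.25 µM and 1.33 ± 0.14, adjusted p = 1.23e-07, at 10 µM. Part of this signal may be shared with the antisense gene AL391684.1, whose exons cover 19.3% of the GOT1 exon bases. In HuCCT1 GOT1 had 82.6, 89.9 and 80.5 CPM with the combination, 56.2, 67.4 and 79.2 CPM with vehicle, 73.3, 73.6 and 81.2 CPM at 1.25 µM and 84.3, 93.3 and 83.9 CPM at 10 µM. It rose there at 10 µM (0.37 ± 0.11, adjusted p = 0.0279), a call that ended on leaving out 1 of vehicle replicates 1 and 2, 10 µM replicates 1 and 2 and with a fit of the compared groups alone (adjusted p 2.23e-05 to 0.152 over 13 alternatives). GOT2, the mitochondrial partner, had 99.2, 86.5 and 99.8 CPM with the combination, 64.1, 87.1 and 70.8 CPM with vehicle, 88.3, 105 and 117 CPM at 1.25 µM and 97.2, 90.1 and 100 CPM at 10 µM in OCUG-1. It rose at 1.25 µM (0.48 ± 0.12, adjusted p = 0.0189) and at 10 µM (0.37 ± 0.12, adjusted p = 0.0131), and with the combination it was not called (-0.12 ± 0.12, adjusted p = 0.409). The first call ended on leaving out 1 of vehicle replicates 1 and 3, 1.25 µM replicates 2 and 3 (adjusted p 0.00125 to 0.0952 over 12 alternatives), and the second on leaving out 1 of vehicle replicates 1 and 3 (adjusted p 0.00257 to 0.0834). In HuCCT1 GOT2 stayed between 116 and 131 CPM in mean, with no call.

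The shuttle's carriers also differed. SLC25A11, the oxoglutarate-malate carrier, had 42.8, 33.8 and 39.6 CPM with the combination, 23.8, 29.03 and 28.2 CPM with vehicle, 34.0, 38.8 and 38.6 CPM at 1.25 µM and 29.3, 32.0 and 31.9 CPM at 10 µM in OCUG-1. SLC25A11 rose at 1.25 µM (0.46 ± 0.12, adjusted p = 0.0194), a call that ended on leaving out 1 of vehicle replicates 1 and 3, 1.25 µM replicates 2 and 3 and with library size as the only scaling (adjusted p 0.0038 to 0.097 over 12 alternatives). Of the calcium-stimulated aspartate-glutamate carriers, SLC25A12 (aralar) and SLC25A13 (citrin), SLC25A13 changed in HuCCT1 and SLC25A12 in OCUG-1. SLC25A13 had 13.5, 14.5 and 14.2 CPM with the combination, 27.6, 22.9 and 29.8 CPM with vehicle, 20.2, 22.2 and 24.3 CPM at 1.25 µM and 21.1, 21.5 and 16.7 CPM at 10 µM in HuCCT1. It fell with the combination against 1.25 µM (-0.66 ± 0.13, adjusted p = 0.00422) and at 10 µM against vehicle (-0.44 ± 0.13, adjusted p = 0.0199), with no overlap in either comparison. The first call held under every alternative, and the second ended on leaving out 1 of vehicle replicates 1 and 3, 10 µM replicate 3 and with library size as the only scaling, a fit of the compared groups alone, replicate 3 of all arms left out (adjusted p 0.0111 to 0.108 over 13 alternatives). In OCUG-1 SLC25A13 averaged 23.2 ± 0.708 CPM with the combination, 20.9 ± 0.153 CPM with vehicle, 19.1 ± 2.25 CPM at 1.25 µM and 19.5 ± 1.67 CPM at 10 µM (SD, n = 3 each), with no call. SLC25A12 fell in OCUG-1 at 10 µM (-0.45 ± 0.11, adjusted p = 0.00141), where it averaged 22.5 ± 1.61 CPM against 30.7 ± 1.83 CPM with vehicle. Its mean in HuCCT1 was 25.9 to 28.2 CPM across the arms, with no call.

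Ratios of counts within a library do not depend on how libraries are scaled, and they set the partners side by side. In OCUG-1 the GOT1/GOT2 ratio was 0.995, 0.832 and 0.885 with the combination, 0.525, 0.494 and 0.535 with vehicle, 0.493, 0.482 and 0.4 at 1.25 µM and 0.83, 1.23 and 0.969 at 10 µM. The MDH1/MDH2 ratio ran the other way, at 1.27, 1.82 and 1.54 with the combination, 3.53, 3.19 and 2.99 with vehicle, 3.94, 2.90 and 2.59 at 1.25 µM and 1.57, 1.54 and 1.45 at 10 µM. In both ratios the 6 combination and 10 µM libraries were separate from the other 6. The IDH1/IDH2 ratio in OCUG-1 was 2.91, 3.17 and 3.06 with the combination, 1.33, 1.96 and 1.70 with vehicle, 2.05, 2.35 and 2.19 at 1.25 µM and 3.27, 2.89 and 2.81 at 10 µM. That of SUCLA2 to SUCLG2 was 0.569, 0.552 and 0.641 with the combination, 0.261, 0.265 and 0.275 with vehicle, 0.163, 0.28 and 0.305 at 1.25 µM and 0.42, 0.573 and 0.413 at 10 µM. Both isoform ratios, IDH1/IDH2 and SUCLA2/SUCLG2, were higher in every combination and 10 µM library than in any vehicle library. The SLC25A12/SLC25A13 ratio was 1.07, 1.09 and 1.101 with the combination, 1.51, 1.52 and 1.38 with vehicle, 1.78, 1.47 and 1.302 at 1.25 µM and 1.34, 1.00 and 1.14 at 10 µM, again lower in the combination and 10 µM arms than in any vehicle library. In HuCCT1 IDH1/IDH2 was 1.96, 2.35 and 2.16 with the combination, 4.39, 3.14 and 4.38 with vehicle, 2.92, 2.97 and 3.63 at 1.25 µM and 2.77, 2.90 and 2.35 at 10 µM, and the combination and 10 µM libraries lay below the vehicle range. SLC25A12/SLC25A13 there was 1.86, 1.84 and 1.82 with the combination, 1.01, 1.13 and 0.912 with vehicle, 1.34, 1.21 and 1.26 at 1.25 µM and 1.13, 1.15 and 1.82 at 10 µM, with the combination above every vehicle and 1.25 µM library. MDH1/MDH2 in HuCCT1 was 1.28, 1.09 and 1.21 with the combination, 0.855, 1.06 and 0.737 with vehicle, 2.16, 1.75 and 1.17 at 1.25 µM and 1.27, 1.34 and 0.909 at 10 µM, and every 1.25 µM library lay above the vehicle range, with a log2 difference of 0.91. GOT1/GOT2 in HuCCT1 averaged 0.699 with the combination, 0.561 with vehicle, 0.669 at 1.25 µM and 0.667 at 10 µM. A comparison of 3 against 3 libraries cannot give an exact permutation p below 0.1, and over the 30 ratio tests the smallest adjusted p was 0.176, so no ratio passed the threshold.

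**Figure D2:**
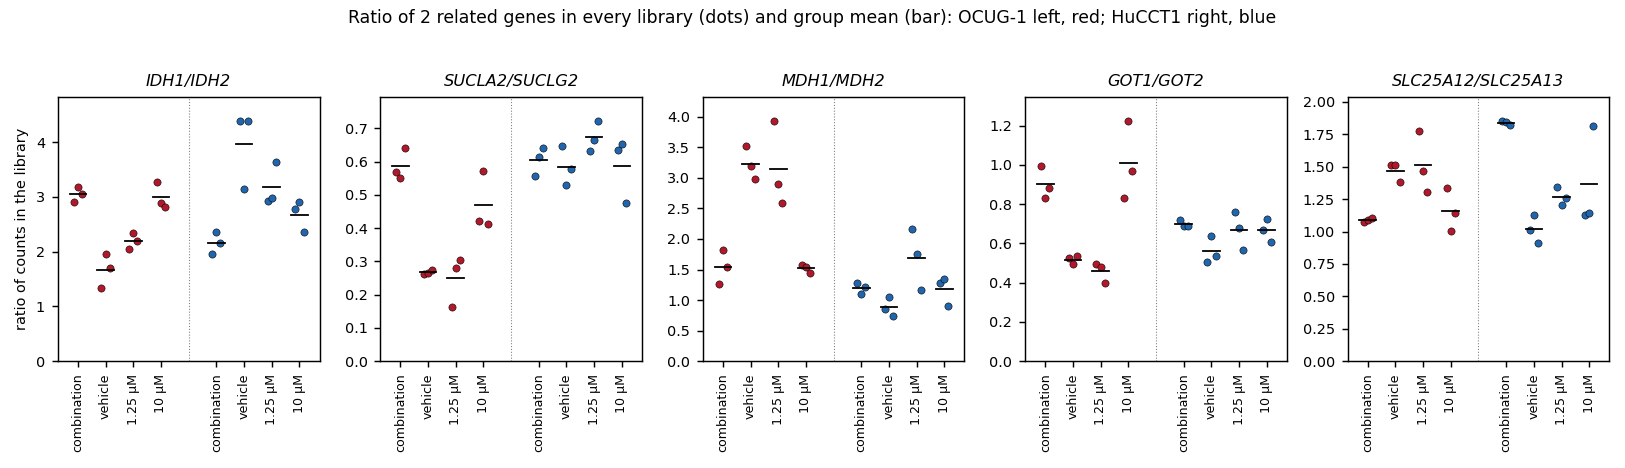
Ratios of counts of 2 related genes in each library (y axis, no unit), with arms on the x axis, OCUG-1 in red on the left and HuCCT1 in blue on the right, and bars at group means. In OCUG-1 GOT1/GOT2 averaged 0.904 with the combination against 0.458 at 1.25 µM, while MDH1/MDH2 averaged 1.54 against 3.14.

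Among the enzymes that handle glutamine, glutamate and alanine, GLUD1 rose in both lines and GPT2 moved in opposite directions. In OCUG-1, where 3 of the 4 were tested, 2 rose and 0 fell with the combination against 1.25 µM and 3 rose and 0 fell at 10 µM. These comparisons called 58.1% and 63.1% of all genes tested. GLUD1, glutamate dehydrogenase, feeds glutamate carbon into the cycle as 2-oxoglutarate. It had 147, 139 and 144 CPM with the combination, 97.2, 112 and 104 CPM with vehicle, 145, 153 and 156 CPM at 1.25 µM and 147, 135 and 150.0 CPM at 10 µM in OCUG-1. All 9 libraries with drug lay above the vehicle range, and the rise was 0.53 ± 0.09, adjusted p = 0.00185, at 1.25 µM and 0.46 ± 0.09, adjusted p = 0.00029, at 10 µM. In HuCCT1 it had 238, 259 and 241 CPM with the combination, 171, 166 and 179.6 CPM with vehicle, 197, 214 and 199 CPM at 1.25 µM and 231, 258 and 314 CPM at 10 µM. The 10 µM libraries spread widely but lay above vehicle, and GLUD1 rose there by 0.63 ± 0.11, adjusted p = 0.000565, while at 1.25 µM it was 0.24 ± 0.11 (adjusted p = 0.141). Its exon bases overlap SHLD2 on the other strand over 13.2%.

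GPT2, the mitochondrial alanine aminotransferase, makes alanine and 2-oxoglutarate from glutamate and pyruvate. It had 52.8, 60.2 and 75.9 CPM with the combination, 31.9, 31.7 and 31.7 CPM with vehicle, 34.8, 30.5 and 26.2 CPM at 1.25 µM and 51.2, 62.8 and 41.9 CPM at 10 µM in OCUG-1. It rose with the combination against 1.25 µM (1.05 ± 0.15, adjusted p = 1.13e-05) and at 10 µM (0.71 ± 0.15, adjusted p = 0.000455), with no overlap. In HuCCT1 it had 35.1, 40.9 and 34.3 CPM with the combination, 67.3, 78.9 and 72.4 CPM with vehicle, 65.2, 63.6 and 54.7 CPM at 1.25 µM and 51.8, 51.5 and 69.8 CPM at 10 µM. There it fell with the combination against 1.25 µM (-0.74 ± 0.13, adjusted p = 0.00168), and the 3 combination libraries lay below all 9 others. GLUL, glutamine synthetase, rose in OCUG-1 with the combination against 1.25 µM (0.53 ± 0.15, adjusted p = 0.00606) and at 10 µM (0.49 ± 0.15, adjusted p = 0.00825). Its means were 39.3 ± 6.31 CPM with the combination, 33.8 ± 5.59 CPM with vehicle, 27.3 ± 0.978 CPM at 1.25 µM and 47.4 ± 9.66 CPM at 10 µM (SD, n = 3 each). The first call ended on leaving out combination replicate 1 (adjusted p 0.000436 to 0.08 over 12 alternatives) and the second on leaving out 10 µM replicate 3 (0.00078 to 0.0745). In HuCCT1 its arm means lay between 23.5 and 25.6 CPM with no call. GLS2, the liver-type glutaminase, was near the floor of detection in both lines, with at most 12 counts per OCUG-1 library and 16 per HuCCT1 library, and exons of SPRYD4 on the other strand cover 77.1% of its exon bases.

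Of the enzymes that fill and drain the cycle, PC fell and PCK2 rose in OCUG-1. Of the 4 genes 2 rose and 1 fell there with the combination against 1.25 µM, and 2 rose and 2 fell at 10 µM. Among all genes tested 58.1% were called in the first comparison and 63.1% in the second. PC, pyruvate carboxylase, makes oxaloacetate from pyruvate. It had 6.62, 6.61 and 7.30 CPM with the combination, 26.5, 20.2 and 20.8 CPM with vehicle, 19.1, 18.1 and 14.8 CPM at 1.25 µM and 6.05, 7.77 and 6.97 CPM at 10 µM in OCUG-1. Its log2 fold change was -1.34 ± 0.16, adjusted p = 7.91e-07, for the combination against 1.25 µM and -1.70 ± 0.15, adjusted p = 2.48e-08, at 10 µM, the second being the deepest fall among the 28 genes at that dose. LRFN4 on the other strand overlaps 10.5% of its exon bases. HuCCT1 libraries had 21.3, 21.6 and 21.1 CPM with the combination, 15.0, 17.3 and 17.3 CPM with vehicle, 23.5, 23.0 and 18.8 CPM at 1.25 µM and 17.4, 21.3 and 16.7 CPM at 10 µM. It rose at 1.25 µM (0.40 ± 0.13, adjusted p = 0.039), with no overlap, but the call ended on leaving out 1 of vehicle replicates 1, 2 and 3, 1.25 µM replicates 1 and 2 and with library size as the only scaling, no filter on low counts, a fit of the compared groups alone (adjusted p 0.00112 to 0.15 over 13 alternatives).

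PCK2, the mitochondrial phosphoenolpyruvate carboxykinase, draws oxaloacetate off to phosphoenolpyruvate. It had 77.8, 78.3 and 83.1 CPM with the combination, 37.2, 37.1 and 34.6 CPM with vehicle, 44.5, 40.4 and 42.4 CPM at 1.25 µM and 58.1, 62.0 and 54.7 CPM at 10 µM in OCUG-1. The combination libraries were above all others, and the rise was 0.91 ± 0.09, adjusted p = 1.9e-07, against 1.25 µM. At 10 µM against vehicle it was 0.68 ± 0.09, adjusted p = 4.82e-06. In HuCCT1 PCK2 had 38.4, 45.0 and 40.1 CPM with the combination, 50.9, 68.9 and 76.5 CPM with vehicle, 45.6, 46.0 and 48.5 CPM at 1.25 µM and 55.5, 57.1 and 65.9 CPM at 10 µM. It fell at 1.25 µM (-0.48 ± 0.13, adjusted p = 0.0174) and with the combination against vehicle (-0.67 ± 0.13, adjusted p = 0.00192). The call at 1.25 µM ended on leaving out 1 of vehicle replicate 3, 1.25 µM replicates 1 and 2 and with a fit of the compared groups alone (adjusted p 0.000922 to 0.085 over 13 alternatives).

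The malic enzymes of the matrix turn malate into pyruvate. ME2, the NAD-dependent form, had 132, 123 and 122 CPM with the combination, 64.6, 86.4 and 72.2 CPM with vehicle, 93.0, 99.0 and 105 CPM at 1.25 µM and 148, 138 and 139.7 CPM at 10 µM in OCUG-1. ME2 rose at 1.25 µM (0.41 ± 0.11, adjusted p = 0.0208) and at 10 µM (0.93 ± 0.11, adjusted p = 4.98e-07), and rose with the combination against 1.25 µM (0.35 ± 0.11, adjusted p = 0.00898). The call at 1.25 µM ended on leaving out 1 of vehicle replicates 1 and 3, 1.25 µM replicates 2 and 3 and with library size as the only scaling (adjusted p 0.00217 to 0.105 over 12 alternatives), and that of the combination ended on leaving out combination replicate 1 (adjusted p up to 0.0839). In HuCCT1 ME2 had 19.6, 25.2 and 20.3 CPM with the combination, 18.3, 13.8 and 21.2 CPM with vehicle, 18.05, 18.6 and 22.8 CPM at 1.25 µM and 28.3, 29.7 and 33.2 CPM at 10 µM. It rose there at 10 µM (0.77 ± 0.15, adjusted p = 0.00168), with no overlap. ME3, the NADP-dependent form, averaged 14.7 ± 2.57 CPM with the combination, 18.9 ± 2.27 CPM with vehicle, 17.6 ± 2.1 CPM at 1.25 µM and 10.7 ± 1.54 CPM at 10 µM in OCUG-1 (SD, n = 3 each). It fell at 10 µM (-0.82 ± 0.16, adjusted p = 0.000191). In HuCCT1 its means were 99.7 ± 5.60, 112 ± 19.98, 133 ± 30.1 and 87.3 ± 7.81 CPM in the same order, and it was lower at 10 µM than at 1.25 µM (-0.61 ± 0.15, adjusted p = 0.00853), a call that ended on leaving out 1.25 µM replicate 1 (adjusted p 1.92e-07 to 0.0568 over 13 alternatives).

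Of the citrate carriers, SLC25A1 fell in OCUG-1 and SLC13A5 fell in HuCCT1. SLC25A1 exports citrate from the matrix for lipid synthesis. It had 69.0, 74.8 and 67.3 CPM with the combination, 193, 182 and 173 CPM with vehicle, 205, 202 and 195 CPM at 1.25 µM and 71.0, 47.3 and 85.1 CPM at 10 µM in OCUG-1. The combination and 10 µM libraries lay below all the others, and the log2 fold change was -1.51 ± 0.15, adjusted p = 1.11e-07, for the combination against 1.25 µM and -1.43 ± 0.15, adjusted p = 1.51e-07, at 10 µM. In HuCCT1 it had 119.9, 115 and 113 CPM with the combination, 97.7, 112 and 118 CPM with vehicle, 141, 149 and 145 CPM at 1.25 µM and 121, 132 and 79.0 CPM at 10 µM. It was called there only between the doses, lower at 10 µM (-0.39 ± 0.14, adjusted p = 0.049), and 10 µM replicate 3 was the lowest library, while that call ended on leaving out 1 of 1.25 µM replicates 1, 2 and 3, 10 µM replicates 1 and 3 and with RLE size factors, library size as the only scaling, a fit of the compared groups alone, replicate 3 of all arms left out (adjusted p 0.0139 to 0.293 over 13 alternatives). SLC13A5, which takes up citrate from outside the cell, had 5.56, 5.40 and 5.49 CPM with the combination, 17.4, 16.1 and 19.1 CPM with vehicle, 5.26, 5.85 and 7.25 CPM at 1.25 µM and 6.38, 4.34 and 6.92 CPM at 10 µM in HuCCT1. All 9 libraries with drug lay below the 3 vehicle libraries. The log2 fold change was -1.52 ± 0.17, adjusted p = 5.57e-05, at 1.25 µM and -1.57 ± 0.17, adjusted p = 1.21e-05, at 10 µM, and with the combination against 1.25 µM it was -0.16 ± 0.18 (adjusted p = 0.615). In OCUG-1 SLC13A5 gave 0 to 9 counts per library and was not tested.

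**Figure D3:**
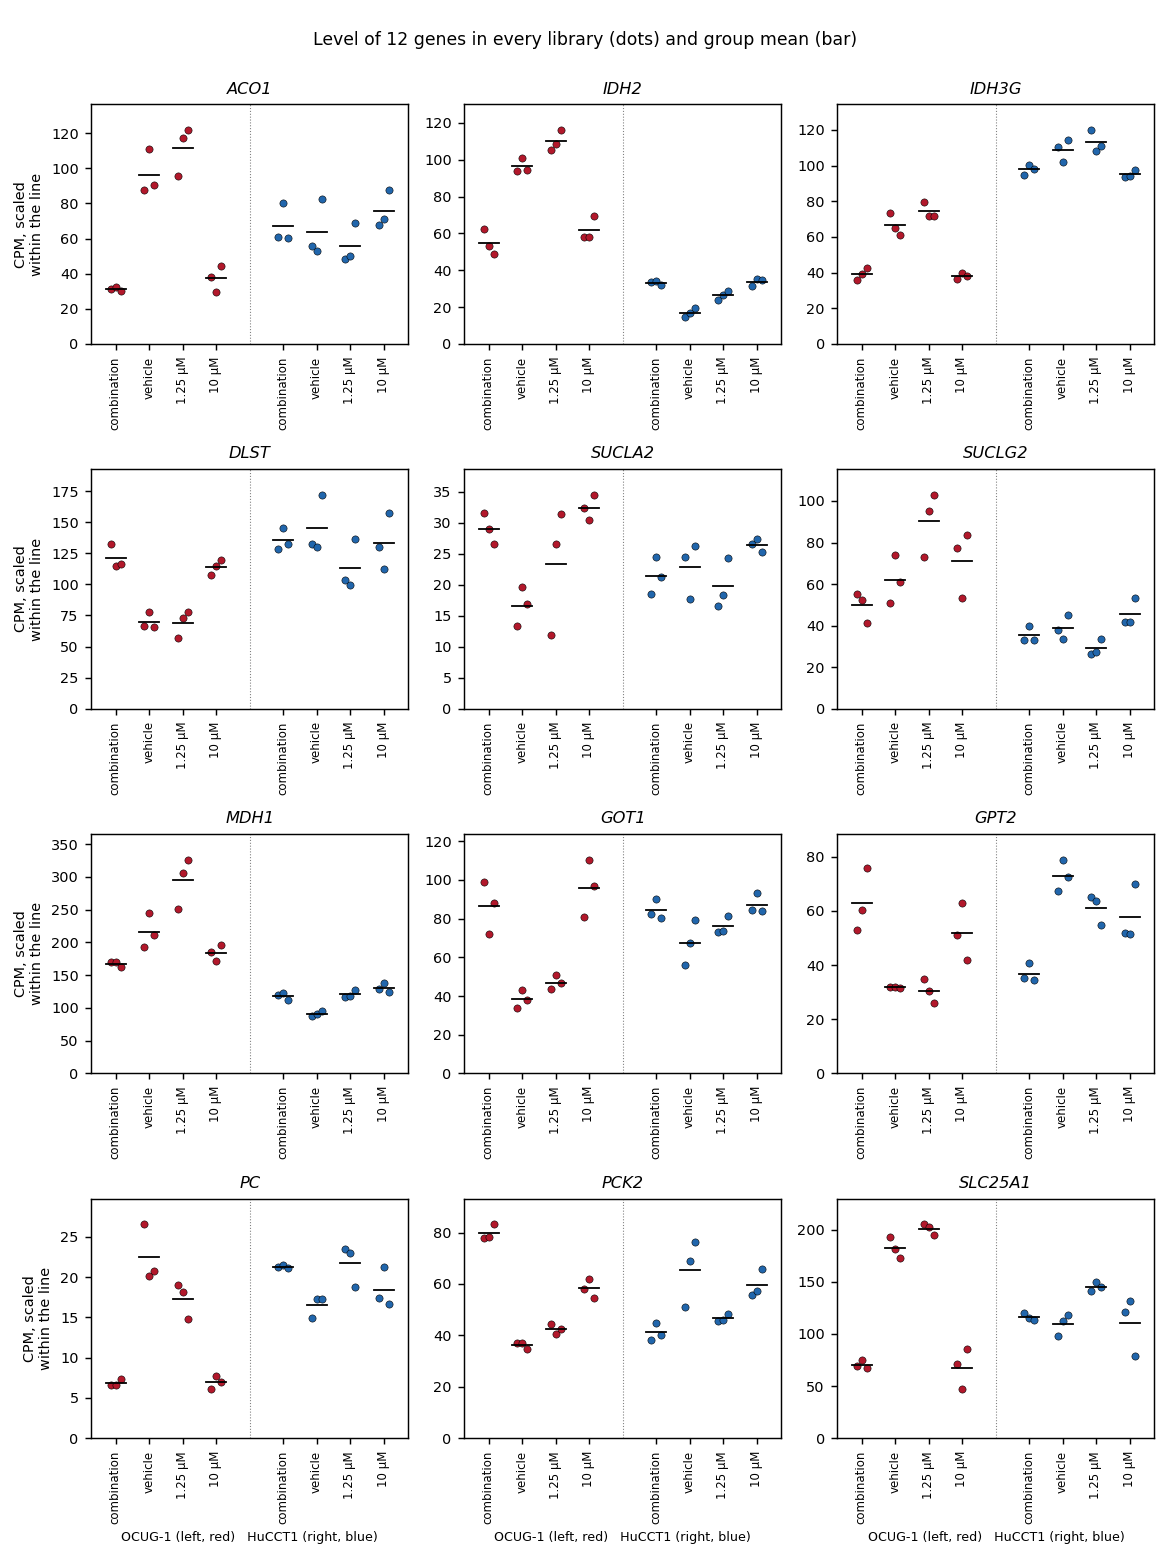
CPM of 12 genes in every library (dots, y axis from 0, scaled within a line) by arm on the x axis, OCUG-1 in red on the left and HuCCT1 in blue on the right, with bars at group means. ACO1, PC and SLC25A1 are low and GOT1, DLST and PCK2 high in the OCUG-1 combination and 10 µM arms, with ACO1 at 31.3 CPM in mean with the combination against 112 CPM at 1.25 µM.

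Without drug the lines already differed in most of these genes. In OCUG-1 against HuCCT1 vehicle libraries 8 of 30 were higher and 16 lower, where 35.6% of all 22944 genes tested were higher and 32.7% lower (68.3% in all). The median was -0.34 beside 0.05 over all genes. Of the 24 calls 16 held under every alternative. Those for ACO1, IDH3A, OGDH, SUCLA2, SUCLG2, FH, MDH2 and SLC25A11 ended in at least 1. Values in this paragraph are scaled over both lines and so differ slightly from those above. SLC13A5 had 0.236, 0.23 and 0.171 CPM in OCUG-1 against 18.6, 17.2 and 20.5 CPM in HuCCT1, on 4, 4 and 3 counts in OCUG-1, and the log2 difference was -6.43 ± 0.36, adjusted p = 8.19e-16. It did not pass the filter on low counts in the fit of OCUG-1 alone, so the size of this difference is set against the floor of detection. ME3 had 18.4, 15.7 and 20 CPM in OCUG-1 against 122, 139.8 and 97.8 CPM in HuCCT1 (-2.73 ± 0.16, adjusted p = 4.71e-15). Its relative ME2 went the other way. ME2 had 61.7, 82.5 and 69.0 CPM in OCUG-1 against 19.6, 14.7 and 22.8 CPM in HuCCT1 (1.89 ± 0.13, adjusted p = 2.36e-13). Every value of one line lay on one side of the other for these 3 genes. IDH2 had 89.6, 96.6 and 90.3 CPM in OCUG-1 against 15.5, 17.9 and 20.7 CPM in HuCCT1 (2.35 ± 0.12, adjusted p = 7.14e-17). GPT2 had 30.4, 30.3 and 30.3 CPM in OCUG-1 against 72.1, 84.3 and 77.7 CPM in HuCCT1 (-1.36 ± 0.15, adjusted p = 1.85e-09), and DLST had 63.7, 74.3 and 62.7 CPM against 142, 139 and 185 CPM (-1.22 ± 0.14, adjusted p = 7.71e-09). Again no value of one line reached the range of the other. Both mitochondrial shuttle enzymes and GOT1 were lower in OCUG-1 (GOT1 -0.99 ± 0.13, GOT2 -0.88 ± 0.14, MDH2 -0.82 ± 0.25), and MDH1 was higher (1.08 ± 0.10). The MDH2 call ended with the replicate block (adjusted p 0.00212 to 0.119 over 11 alternatives). Levels per kilobase were taken over the annotated exons of all isoforms of a gene, so they compare different genes only roughly. On this scale SLC25A1 was the highest of the 30 in both vehicle arms, at 87.0 CPM per kb in OCUG-1 and 52.2 in HuCCT1. FH followed at 50.03 CPM per kb in OCUG-1 and 51.7 CPM per kb in HuCCT1. Then came MDH1 (43.3 CPM per kb) in OCUG-1 and GLUD1 (49.0 CPM per kb) in HuCCT1. Cell line and medium cannot be told apart in any of these differences.

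**Figure D4:**
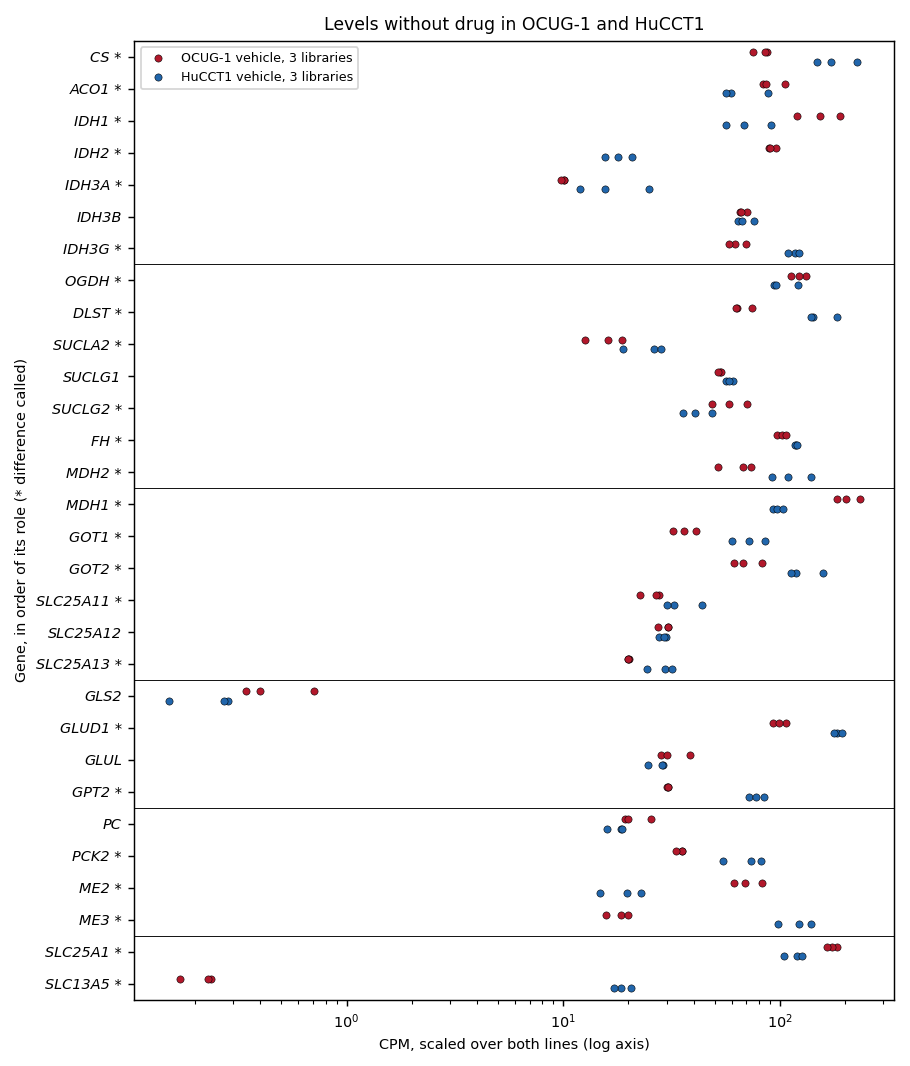
CPM of the 30 genes in vehicle libraries on a log x axis, scaled over both lines, with 3 OCUG-1 libraries in red and 3 HuCCT1 libraries in blue per gene and an asterisk on each called difference. SLC13A5, ME3, ME2 and IDH2 show the widest gaps between lines, with log2 differences of -6.43, -2.73, 1.89 and 2.35 (OCUG-1 minus HuCCT1). SLC13A5 was near the floor of detection in OCUG-1.

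Whether the 2 lines responded differently was tested as the difference of their log2 fold changes (OCUG-1 minus HuCCT1) in 1 fit of all 24 libraries. For the combination against 1.25 µM the response of 5 genes was more positive and that of 9 more negative in OCUG-1, where the shares over all genes were 18.6% and 20.2% (38.8% in all). The difference was -2.22 ± 0.24, adjusted p = 5.87e-08, for ACO1 and -1.45 ± 0.16, adjusted p = 2.3e-08, for IDH2. It was -1.43 ± 0.20, adjusted p = 1.38e-06, for PC and 1.66 ± 0.20, adjusted p = 1.55e-07, for GPT2. GPT2 was the only gene called in both lines in this comparison, and it was higher in OCUG-1 and lower in HuCCT1. At 10 µM 6 genes responded more positively and 9 more negatively in OCUG-1, where the shares over all genes were 20.7% and 23.1% (43.8%). PC differed by -1.93 ± 0.20, adjusted p = 5.74e-09, and IDH2 by -1.72 ± 0.16, adjusted p = 8.43e-10, with IDH2 lower in OCUG-1 and higher in HuCCT1. The values of 2 further genes at 10 µM rest on few reads: GLS2 (-3.50 ± 0.96, adjusted p = 0.00361) had 1, 4 and 0 counts at 10 µM and 12, 6 and 7 with vehicle in OCUG-1, and SLC13A5 (1.98 ± 0.63, adjusted p = 0.0112) had 7, 5 and 8 counts at 10 µM and 4, 4 and 3 with vehicle. Neither gene passed the filter on low counts in OCUG-1, so these values do not measure a response there, and the one for SLC13A5 stands on its fall in HuCCT1. The SLC13A5 call ended on leaving out OCUG-1 10 µM replicate 3 (adjusted p 0.00368 to 0.0562 over 17 alternatives). At 1.25 µM 2 genes responded more positively and 1 more negatively in OCUG-1, where the shares over all genes were 4.96% and 4.69% (9.65%). These were SUCLG2 (0.99 ± 0.24, adjusted p = 0.0101), PCK2 (0.74 ± 0.16, adjusted p = 0.00377) and PC (-0.74 ± 0.20, adjusted p = 0.0158), and the call for PC ended on leaving out 1 of HuCCT1 vehicle replicate 1, HuCCT1 1.25 µM replicates 1 and 2, OCUG-1 vehicle replicate 1, OCUG-1 1.25 µM replicate 3 (adjusted p 0.00438 to 0.0803 over 17 alternatives). With single libraries left out the 3 became 6 (HuCCT1 vehicle replicate 2 or HuCCT1 1.25 µM replicate 3), 5 (OCUG-1 vehicle replicate 2) or 7 (OCUG-1 1.25 µM replicate 1). The combination against vehicle called 59.5% of all genes tested in OCUG-1 and 20.1% in HuCCT1. The share of all genes called in both lines was not counted, and no line difference was tested for this comparison. Among the members 7 were called in both lines, 6 of them in opposite directions. GPT2 and PCK2 rose in OCUG-1 and fell in HuCCT1, and GLUD1 rose in both. IDH2, OGDH, MDH1 and PC fell in OCUG-1 and rose in HuCCT1. Of these 7 genes the HuCCT1 calls for OGDH, given above, and for PC, which ended on leaving out 1 of vehicle replicates 1, 2 and 3, combination replicates 1, 2 and 3 and with RLE size factors, no filter on low counts (adjusted p 0.00828 to 0.189 over 13 alternatives), did not hold throughout, and the OCUG-1 call for MDH1 ended on leaving out vehicle replicate 2 (adjusted p 0.00392 to 0.0604 over 12 alternatives).

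**Figure D5:**
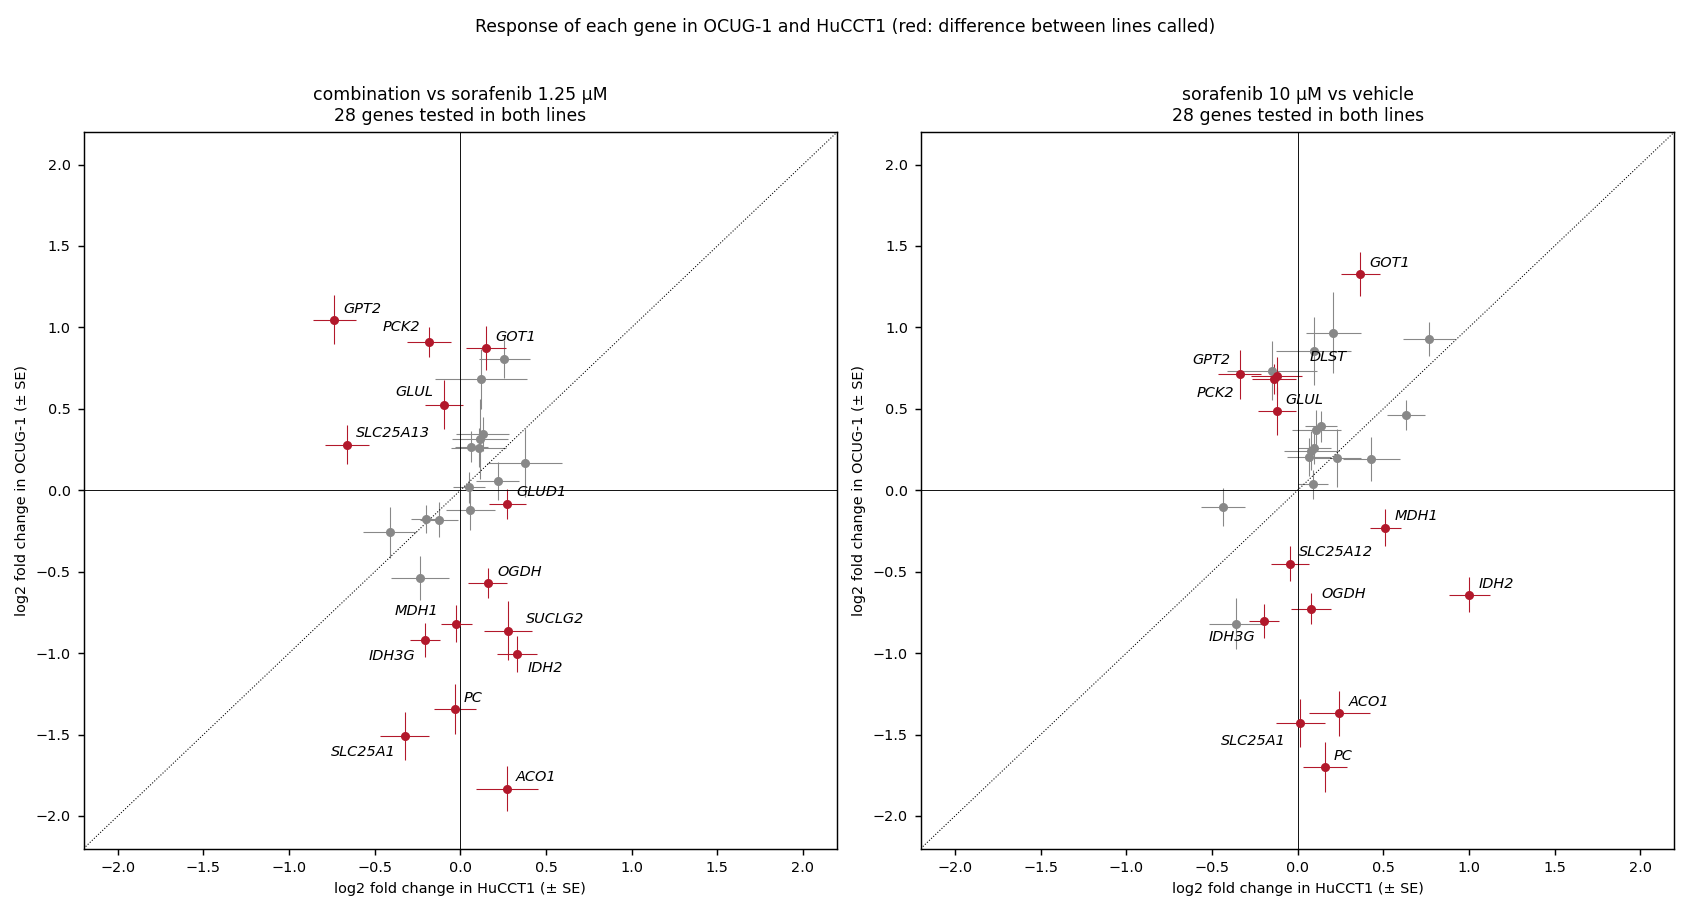
log2 fold change ± SE of 28 genes in OCUG-1 (y axis) against HuCCT1 (x axis), for the combination against 1.25 µM (left) and 10 µM against vehicle (right), with genes whose response was called different between lines in red. IDH2 lies in the lower right of both plots, at -0.64 in OCUG-1 and 1.00 in HuCCT1 at 10 µM, and GPT2 in the upper left. The HuCCT1 values of IDH2 in the left plot and of GPT2 in the right plot were not called.

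A second list of 30 genes of the same pathways, not among those above, is given beside them. It holds pyruvate carriers, the pyruvate dehydrogenase complex, succinate dehydrogenase, glutamine transporters and others, and 29 of them were tested in OCUG-1 and 26 in HuCCT1. In OCUG-1 8 rose and 11 fell with the combination against 1.25 µM, where 58.1% of all genes were called, 11 rose and 10 fell at 10 µM (63.1% of all genes), and 5 rose and 4 fell at 1.25 µM (10.5%). In HuCCT1 0 rose and 1 fell with the combination (11.6% of all genes), 8 rose and 1 fell at 10 µM (24.2%), and 7 rose and 4 fell at 1.25 µM (18.5%). As shares of those tested, 65.5%, 72.4% and 31.03% of the list were called in OCUG-1 and 3.85%, 34.6% and 42.3% in HuCCT1, in the same order of comparisons. The glutamine and neutral amino acid transporters SLC38A1 and SLC1A5 rose in OCUG-1 with the combination, by 1.14 ± 0.13 and 0.70 ± 0.10 in that order, and SLC1A5 also at 10 µM, by 0.94 ± 0.10. DLAT, the acetyltransferase of pyruvate dehydrogenase, rose at 10 µM by 1.31 ± 0.17 while PDHB, a subunit of its decarboxylase, changed by -0.83 ± 0.10. D2HGDH, which oxidises D-2-hydroxyglutarate to 2-oxoglutarate, was lower at 10 µM (-2.47 ± 0.14) and with the combination (-1.69 ± 0.14). ACLY, which splits the citrate that SLC25A1 exports, was lower with the combination (-0.69 ± 0.10) and at 10 µM (-0.36 ± 0.10). In HuCCT1 the pyruvate carrier subunits MPC1 and MPC2 rose at 1.25 µM (0.77 ± 0.12 and 0.83 ± 0.12) and at 10 µM (0.84 ± 0.12 and 0.96 ± 0.11). All of these calls had an edgeR adjusted p under 0.05. The alternatives were examined for the 30 members only, so how far calls of this second list hold is not known.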

How the data were processed

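Counts per gene were deposited by the authors as 1 table per line, and per the submitters' processing notes they were made with fastp 1.3.2, HISAT2 2.2.2 against GRCh38 and featureCounts (Subread 2.1.1). Per the labels, RNA was extracted with TRIzol and sequenced as paired-end mRNA libraries. The sources used here do not name the annotation release, the strand option or how multimapping reads were handled, and reads of overlapping genes on opposite strands therefore cannot be told apart. Extra runs of 4 OCUG-1 libraries were pooled as technical, and the labels do not say which.

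Groups came from the sample titles. Raw counts were tested in R 4.3.3 with edgeR 4.0.16 (glmQLFit with robust estimation, glmQLFTest, trimmed mean of M values, filterByExpr at a minimum count of 10), in 1 fit of 12 libraries per line and 1 of 24 for comparisons between lines. All p-values are two-sided with Benjamini-Hochberg adjustment over all genes tested, and the SE is the absolute log2 fold change over the square root of the F statistic. The edgeR procedure was tested on simulated data. Ratios used an exact two-sided permutation test over libraries. Alternatives were other scalings, no filter, DESeq2 1.42.0, fits of the compared groups alone, a replicate block and leaving libraries out.

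The members and lists were chosen with earlier results of these data known. Values in every library are given for up to 6 called members with the largest absolute log2 fold change per main comparison and vehicle comparison and up to 4 per line difference, with others by role. The result of 1 gene of the second pathway list is not reported here.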

Additional observations from a re-analysis of the deposited data

Results flagged for a closer look

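The response to drug differed between the lines, OCUG-1 minus HuCCT1, by edgeR's interaction test for 14 genes with the combination against 1.25 µM, 15 genes at 10 µM against vehicle and 3 genes at 1.25 µM against vehicle. These were 46.7%, 50% and 10% of the members, where the same test called 38.8%, 43.8% and 9.65% of all genes. The distance between these shares was not tested. With the combination the difference in log2 fold change was positive for GPT2 (1.66), PCK2 (0.98), SLC25A13 (0.82), GOT1 (0.61) and GLUL (0.51), and negative for ACO1 (-2.22), IDH2 (-1.45), PC (-1.43), SLC25A1 (-1.30), SUCLG2 (-1.26), MDH1 (-0.91), OGDH (-0.85), IDH3G (-0.83) and GLUD1 (-0.47). IDH2 sits among the negative ones, with a log2 fold change of -1.01 in OCUG-1 and 0.33 in HuCCT1, where it was not called.

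At 10 µM the difference was positive for SLC13A5 (1.98), GPT2 (0.98), GOT1 (0.89), DLST (0.76), PCK2 (0.75) and GLUL (0.54), and negative for GLS2 (-3.50), PC (-1.93), IDH2 (-1.72), ACO1 (-1.69), SLC25A1 (-1.52), OGDH (-0.88), MDH1 (-0.81), IDH3G (-0.68) and SLC25A12 (-0.48). GLS2 and SLC13A5 did not pass the filter on low counts in OCUG-1, so their values do not measure a response in that line. At 1.25 µM it was positive for SUCLG2 (0.99) and PCK2 (0.74), and negative for PC (-0.74). The 10 µM and 1.25 µM differences share their vehicle libraries, and the combination shares the 1.25 µM libraries, so these lists are not independent of each other. The calls for GOT1 and GLUL with the combination, SLC25A12, GLUL and SLC13A5 at 10 µM and PC at 1.25 µM ended in at least 1 alternative. Whether the line or its medium goes with a difference cannot be told apart.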

How the results depend on the processing

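The alternatives were relative log expression (RLE) size factors, library size alone, no filter on low counts, only the compared groups in the fit, DESeq2, a replicate block and each library left out, plus HuCCT1 replicate 3 of all arms left out, which was chosen after seeing the data. No called value changed sign. Single-gene calls and count ratios were followed together under the alternatives. In 192 cases a single-gene call ended. The other 2232 cases were calls that held or ratios that moved by less than their pooled standard deviation. The calls that held under every alternative were 14 of 17 for the OCUG-1 combination against 1.25 µM, 18 of 21 at 10 µM and 1 of 7 (GLUD1) at 1.25 µM, and in HuCCT1 2 of 2, 5 of 7 and 2 of 7 in the same order. For the combination against vehicle 15 of 22 held in OCUG-1 and 7 of 9 in HuCCT1. Between the doses 15 of 18 held in OCUG-1 and 3 of 7 in HuCCT1, and between the vehicle lines 16 of 24. Members called in HuCCT1 at 1.25 µM numbered 11 with the replicate block, 4 with only the compared groups and 16 without replicate 3, beside 7. The HuCCT1 10 µM count was 14 without replicate 3, beside 7. The HuCCT1 combination gave 4 with library size alone, 4 with the block, 5 with only the compared groups and 15 without replicate 3, beside 2, and against vehicle 17 without replicate 3, beside 9. The HuCCT1 dose comparison gave 11 with library size alone, 11 without a filter, 11 with the block and 17 without replicate 3, beside 7. OCUG-1 at 1.25 µM gave 11 with DESeq2, beside 7, and the line difference at 1.25 µM gave 5 without a filter, 7 with DESeq2 and 5 with the block, beside 3.

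Leaving out 1 library at a time, the count was 1 to 10 for OCUG-1 at 1.25 µM, 19 to 22 at 10 µM, 14 to 18 for its combination against 1.25 µM, 17 to 21 against vehicle and 16 to 20 between its doses. It was 3 to 10 for HuCCT1 at 1.25 µM, 5 to 9 at 10 µM, 2 to 5 for its combination against 1.25 µM, 7 to 10 for its combination against vehicle and 3 to 12 between its doses. For line differences it was 21 to 23 with vehicle, 2 to 7 at 1.25 µM, 13 to 17 at 10 µM and 12 to 15 with the combination. With replicate 3 left out the HuCCT1 libraries were fewer but the calls over all genes rose too, to 5853 of 20247 for the combination against 1.25 µM and 6413 at 10 µM. The cause was not tested. Deviations of same-numbered libraries correlated at a median r of -0.0295 in OCUG-1 (-0.196 to 0.244 over 18 pairs) and 0.0505 in HuCCT1 (-0.131 to 0.396 over 18 pairs, against a median of -0.0236 for other pairs). Some HuCCT1 pairs deviated together, but not every pair was over 0.1 and the labels state no pairing, so the block was kept as an alternative. Library-size scaling moved the median log2 fold change of all genes by over 0.1 in 6 comparisons: 0.15 for the OCUG-1 combination against 1.25 µM, 0.12 between the OCUG-1 doses, 0.19 for the HuCCT1 combination against 1.25 µM, -0.15 for HuCCT1 at 1.25 µM, 0.18 between the HuCCT1 doses and 0.15 between the lines with vehicle.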

Other observations

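Succinate dehydrogenase is both a TCA cycle enzyme and complex II of the respiratory chain, and its subunits split in OCUG-1. At 10 µM against vehicle SDHB (1.28 ± 0.16), SDHC (0.92 ± 0.24) and SDHD (0.92 ± 0.12) rose and SDHA (-0.38 ± 0.12) fell, and with the combination against 1.25 µM SDHB rose (0.57 ± 0.15) and SDHA fell (-0.30 ± 0.11). In HuCCT1 SDHD rose at 10 µM (0.80 ± 0.12) and SDHA rose at 1.25 µM (0.37 ± 0.11). These genes belong to the second list, and no alternative was examined for their calls.

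The member genes leaned towards single libraries within a group. In OCUG-1, 15 of 30 were highest in combination replicate 1, 18 in vehicle replicate 2, 16 in 1.25 µM replicate 3 and 15 in 10 µM replicate 3, which held the highest value for 35.1%, 35.4%, 34.7% and 35.3% of all genes tested. As in HuCCT1, the combination, vehicle and 1.25 µM libraries named here had the lowest mitochondrial share of their arms (4.71, 11.1 and 9.39%). At 10 µM the lowest share was in replicate 2 (5.65%). A link of level and share was not tested.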
